A study of Mus musculus with 6 samples.

Results

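The neurotrophins Bdnf and Ntf3, the Trk receptors Ntrk2 and Ntrk3, the p75 receptor Ngfr and the sorting receptor Sort1 were followed on Agilent expression arrays through every probe whose gene name was 1 of these 6 symbols. The rule gave 12 of 56605 probes, under 6 of 37074 gene names, and it used no measured value. RNA came from tissue labelled hypothalamus of male C57BL/6J DIO mice, which had been made obese by a diet with 60 kcal% fat for 16 weeks from an age of 6 weeks. In 1 group of 3 arrays the mice had received GSK-J4 at 30 mg kg−1, and in the other group of 3 arrays they had received vehicle, with a different mouse on each array. GSK-J4 is a small molecule that inhibits the Kdm6 demethylases, which remove the repressive methyl marks from lysine 27 of histone H3. Strain, sex, diet, the cycle of 12 h light and 12 h dark and collection at ZT 6 h, counted from lights on, were common to both groups. Collection is placed at day 4 of exposure in the series' design text, whereas a course of 21 d is described for the treated animals, so the length of exposure behind these arrays is not settled.

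Neurotrophins are secreted growth factors that act on neurons through receptor tyrosine kinases of the Trk family and through p75, a receptor of the tumour necrosis factor family. BDNF signals through TrkB, the product of Ntrk2, NT-3, the product of Ntf3, signals mainly through TrkC, the product of Ntrk3, and both ligands and their precursors also bind p75, often together with sortilin, the product of Sort1. Both Trk genes make full-length receptors with a kinase domain and truncated receptors without one, and in the hypothalamus signalling by BDNF through TrkB restrains food intake.

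Each group lay on a slide and in a scan of its own, so an effect of the slide or the scan cannot be told apart from one of the treatment. The arrays of GSK-J4 were dimmer as scanned, with a 75th percentile of 406 to 461 against 787 to 916 for vehicle, and all values below are log2 signals after quantile normalization, on which a difference of 1 is a doubling. The detection of marker genes went partly against the tissue label in both groups. Of 8 hypothalamic marker genes, Nkx2-1, the transcription factor that specifies the ventral hypothalamus, and the neuropeptide genes Pmch and Avp did not clear the background on every array of either group. All 7 markers of cortex and hippocampus, among them Neurod6, Neurod2 and Tbr1, were detected. The tissue is therefore called here by its label only. Transcripts of the choroid plexus, the epithelium that makes cerebrospinal fluid, summed to 104834 on vehicle replicate 1 against 2877 and 3015 on the other vehicle arrays and 2449 to 11722 with GSK-J4. Because that array stands apart, values without it are given beside the fold changes, shifts and medians that it moved by over 1.5 times.

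The probes were 60 bases long and separated receptor isoforms at Ntrk2, Ntrk3 and Sort1. Their positions are those of the files on mm9, and probes of a gene are numbered from 5′ to 3′. Ntrk2 probe 1 (A_55_P2006792, chr13:58979563-58979622, plus strand) lies in a stretch that the files assign to truncated and full-length transcripts alike, and Ntrk2 probe 2 (A_51_P393454, chr13:59230936-59230995) lies 251 kb farther downstream and is assigned to full-length transcripts only. Of the 4 Ntrk3 probes, all on the minus strand of chromosome 7, probes 1 and 2 match both variants, probe 3 matches the truncated variant 2 only and probe 4 matches the kinase-bearing variant 1 only. Probe 1 (A_55_P2931253) crosses an intron, between chr7:85662370-85722471, and probes 2 (A_52_P55706, chr7:85595783-85595842), 3 (A_55_P2006808, chr7:85447515-85447574) and 4 (A_66_P118329, chr7:85337455-85337514) each lie in 1 uninterrupted stretch. The probes in coding sequence, 3 shared between receptor forms and 2 that each read 1 variant of Ntrk3, are printed as the files give them, 5′ to 3′, with a stop codon in capitals where the reading frame ends within the probe.
Ntrk2 probe 1, all forms: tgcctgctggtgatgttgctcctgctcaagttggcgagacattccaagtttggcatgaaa
Ntrk3 probe 1, both variants: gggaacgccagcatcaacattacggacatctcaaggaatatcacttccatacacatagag
Ntrk3 probe 2, both variants: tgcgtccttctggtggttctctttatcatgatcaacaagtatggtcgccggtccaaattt
Ntrk3 probe 3, truncated variant: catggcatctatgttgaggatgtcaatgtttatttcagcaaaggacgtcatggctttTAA
Ntrk3 probe 4, kinase-bearing variant: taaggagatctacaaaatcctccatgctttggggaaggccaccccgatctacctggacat

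Each of the 12 probes cleared the background on each of the 6 arrays, so every member was measured in both groups. By limma over the 34443 probes kept, 1 of the 12 was higher with GSK-J4 at an adjusted p of at most 0.05, Sort1 probe 1, beside 8.38% of all probes kept (16.8% were called in either direction). None of the 12 was lower by the same limma test, beside 8.4% of all probes; 0 were lower by the methods' t-test after adjustment. At an unadjusted p of at most 0.05, 1 of the 12 was higher and 1 lower, beside 19.5% and 17% of all probes (36.5% in either direction). The groups did not overlap for 2 of the 12 probes, both of Sort1 and in opposite directions, whereas they did not overlap for 45.6% of all probes. The 12 log2 fold changes ran from −0.29 to 0.50 with a median of 0.14, and 10 of them were above 0, while the median over all probes was 0.02. The share called higher, 8.33% of the 12 probes, was thus close to that of the whole array and is no result about these genes, and probes of 1 gene are not independent of each other.

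**Figure D1:**
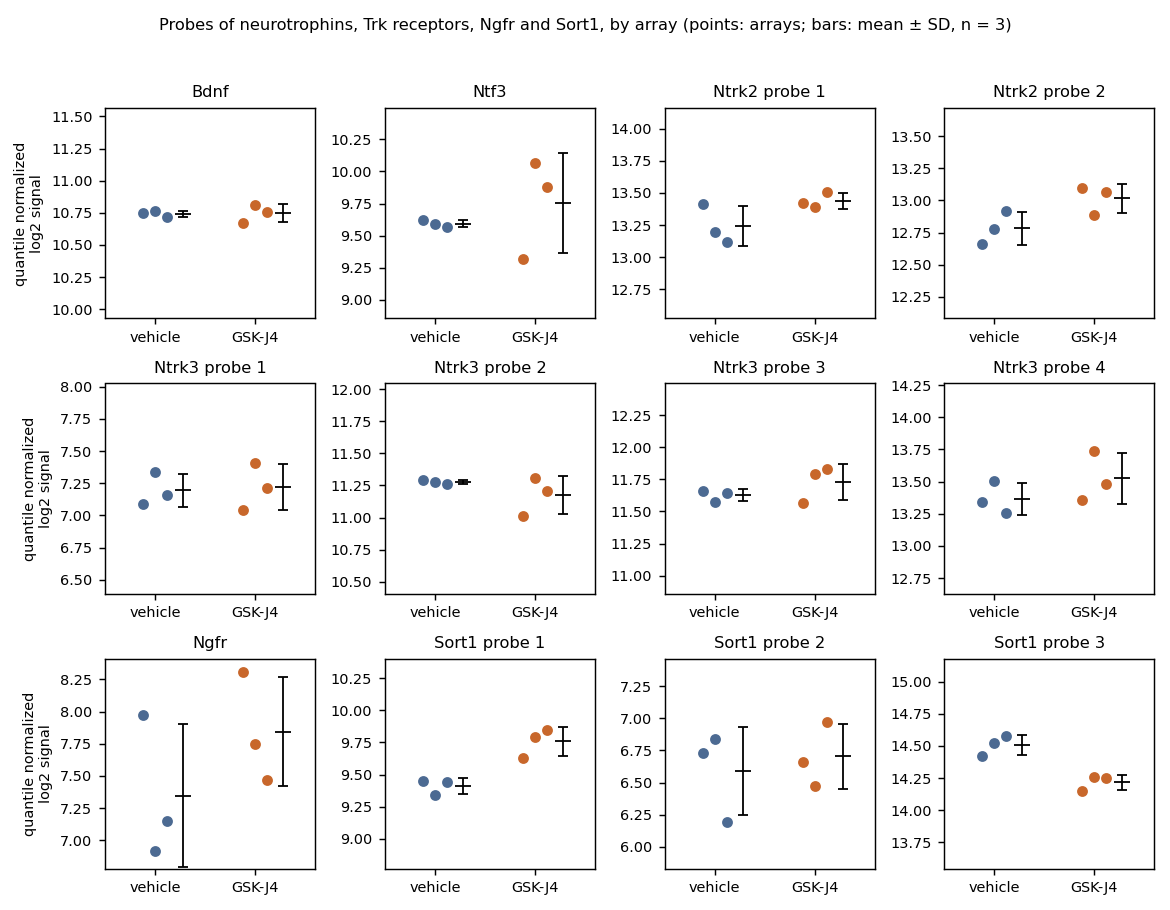
Quantile normalized log2 signal (y axis) of each of the 12 probes on the 3 vehicle arrays (blue) and the 3 GSK-J4 arrays (orange), with the mean ± SD of each group; all panels span the same range of log2 units around their own mean. The groups are separated only for Sort1 probe 1, where GSK-J4 is higher, and Sort1 probe 3, where it is lower.

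Bdnf, the ligand of TrkB, was at nearly the same level in both groups. Its only probe (A_55_P2036303, chr2:109566961-109567020, plus strand) read 10.75, 10.76 and 10.72 with vehicle and 10.67, 10.81 and 10.76 with GSK-J4. The vehicle arrays all lay between the lowest and the highest GSK-J4 array. The log2 fold change was 0.00 ± 0.07 (SE), with a 95% interval from −0.17 to 0.18 and a limma adjusted p of 0.98. Without vehicle replicate 1 the log2 fold change was 0.01.

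Ntf3, which encodes NT-3, varied more among the GSK-J4 arrays than between the groups. Its probe (A_55_P2021565, chr6:126051431-126051490, minus strand) read 9.62, 9.59 and 9.57 with vehicle, and 9.32, 10.06 and 9.88 with GSK-J4. GSK-J4 replicate 1 was the lowest of all 6 arrays and the other 2 GSK-J4 arrays were the highest. The log2 fold change was 0.16 ± 0.20 (SE; limma adjusted p = 0.585), and it was 0.38 without GSK-J4 replicate 1 and 0.01 without GSK-J4 replicate 2.

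Both Ntrk2 probes were higher with GSK-J4 by a similar amount, and neither passed the test. Probe 1, which reads every form of TrkB, gave 13.41, 13.20 and 13.12 with vehicle and 13.42, 13.39 and 13.51 with GSK-J4. Vehicle replicate 1 reached the GSK-J4 arrays and the other 2 vehicle arrays lay below them. The log2 fold change was 0.20 ± 0.10 (SE; limma adjusted p = 0.212).

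Probe 2, which reads only the TrkB receptors with a kinase domain, gave 12.66, 12.78 and 12.91 with vehicle and 13.09, 12.89 and 13.07 with GSK-J4. Vehicle replicate 3 and GSK-J4 replicate 2 overlapped. The log2 fold change was 0.23 ± 0.10 (SE; limma adjusted p = 0.161).

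The difference probe 1 minus probe 2, which sets all forms of TrkB against the full-length form, moved by −0.04 between the groups in log2 units (exact permutation test, two-sided, p = 0.9) and by 0.11 without vehicle replicate 1. The calls of Ntrk2 depended on how the arrays were scaled, and the direction of probe 1 on a correction for GC content. When quantile normalization was replaced by scaling each array to its 75th percentile, the log2 fold changes were 0.46 and 0.45, both past the limma threshold (adjusted p = 0.0204 and 0.0402), whereas after a correction for the GC content of the probes they were −0.02 and 0.18 (adjusted p = 0.911 and 0.282). Truncated TrkB is abundant in astrocytes, and the summed signal of 7 astrocyte markers was 112840 to 121753 with vehicle and 122094 to 127234 with GSK-J4. Of the 7, limma called 0, beside 8.59% higher and 7.56% lower of all genes, and the methods' t-test called 0. At an unadjusted limma p of at most 0.05, 1 was higher and 1 lower, beside 20.1% and 15.5% of all genes. With scaling to the 75th percentile limma called 4 of the 7 higher and 0 lower, beside 17.5% and 8.49% of all genes. The part of the astrocyte markers in the Ntrk2 values was not tested. In whole tissue a change in the number of cells of a type and 1 in the RNA per cell cannot be told apart.

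None of the 4 Ntrk3 probes, which read the transcripts of TrkC, passed the test, and the groups overlapped for each. Probe 1, in the extracellular part shared by both variants, read 7.09, 7.34 and 7.16 with vehicle and 7.04, 7.41 and 7.21 with GSK-J4. Probe 2, also shared, read 11.29, 11.28 and 11.26 against 11.01, 11.31 and 11.21. In both probes the vehicle arrays lay between the lowest and the highest GSK-J4 array, and the log2 fold changes were 0.02 ± 0.12 and −0.10 ± 0.10 (SE), with limma adjusted p-values of 0.905 and 0.472. Without vehicle replicate 1 probe 1 was at −0.03.

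Probe 3, for the truncated receptor that ends at the TAA codon in capitals, read 11.66, 11.57 and 11.65 with vehicle and 11.57, 11.79 and 11.83 with GSK-J4. Probe 4, for the receptor with a kinase domain, read 13.34, 13.50 and 13.26 against 13.35, 13.74 and 13.48. The groups overlapped in both, with GSK-J4 replicate 1 at the level of the vehicle arrays. The log2 fold changes were 0.10 ± 0.10 for the truncated and 0.16 ± 0.13 for the kinase-bearing variant (SE; limma adjusted p = 0.460 and 0.404).

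Compared within each array before GC correction, the shift between the truncated and the kinase-bearing probe of Ntrk3 did not exceed the spread of the arrays. Some shifts against the shared probes separated the groups. The truncated minus the kinase-bearing probe was −1.74 ± 0.17 with vehicle and −1.80 ± 0.15 with GSK-J4 (SD, n = 3 arrays each; log2 difference of signals, exact permutation p = 0.7), a shift of −0.06 (−0.03 without vehicle replicate 1). Relative to shared probe 2 both isoform probes were higher with GSK-J4 on every array: the difference probe 2 minus probe 3 went from −0.35 ± 0.05 to −0.55 ± 0.07 and probe 2 minus probe 4 from −2.09 ± 0.12 to −2.35 ± 0.08 (SD, n = 3; groups not overlapping, exact permutation p = 0.1 for each, the smallest that 3 against 3 allows). Relative to shared probe 1 this held for the kinase-bearing variant only: probe 1 minus probe 4 moved by −0.14 without overlap (exact permutation p = 0.1), and probe 1 minus probe 3 by −0.08 with overlapping groups (exact permutation p = 0.6; −0.15 without vehicle replicate 1). The difference between both shared probes, probe 1 minus probe 2, moved by 0.13 (exact permutation p = 0.3; 0.07 without vehicle replicate 1). Across the 10 pairs of probes compared at Ntrk2, Ntrk3 and Sort1 the groups did not overlap for 4 pairs. Each of the 4 had p = 0.1 in the exact test and 0.25 after Benjamini-Hochberg adjustment. The groups did not overlap for 45.6% of single probes on the array. The share over pairs of probes of other genes was not computed, so the 4 pairs are no result about these genes. After GC correction 2 of the 10 remained apart, Ntrk3 probe 2 minus probe 3 (−0.35) and Sort1 probe 1 minus probe 3 (0.39). The truncated minus the kinase-bearing probe of Ntrk3 then went from −2.02 ± 0.16 to −1.77 ± 0.17 (SD, n = 3). That shift was 0.25, of opposite sign, with overlapping groups (exact permutation p = 0.2).

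**Figure D2:**
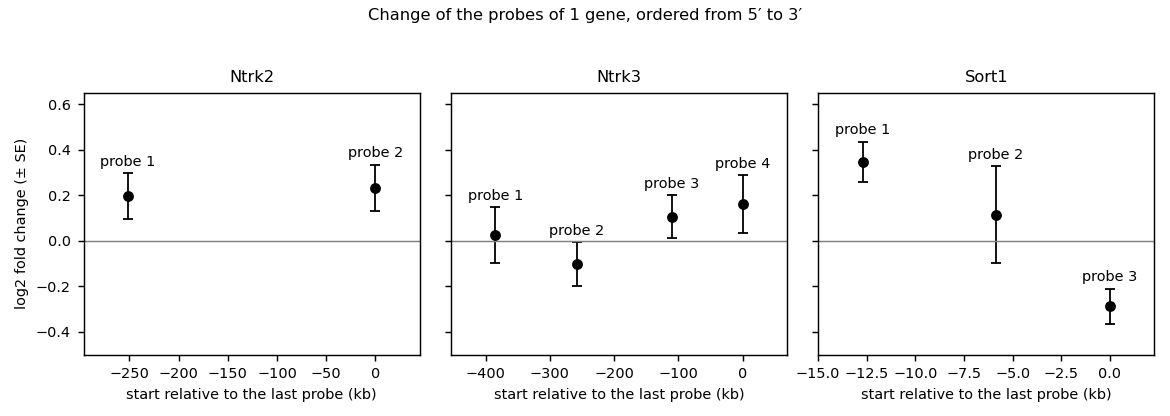
Log2 fold change of GSK-J4 against vehicle (points, ± SE of the limma fit) against the start of each probe relative to the last probe of its gene in kb, 5′ to the left. The 2 Ntrk2 probes lie close together at 0.20 and 0.23, the 4 Ntrk3 probes lie between −0.10 and 0.16, and the 3 Sort1 probes go from 0.35 at probe 1 to −0.29 at probe 3.

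Ngfr, which encodes p75, had the highest fold change of the 12 probes and the widest spread. Its probe (A_52_P236448, chr11:95430211-95430270, minus strand) read 7.98, 6.92 and 7.15 with vehicle and 8.31, 7.75 and 7.47 with GSK-J4. Vehicle replicate 1 was above 2 of the GSK-J4 arrays, and the groups overlapped. The log2 fold change of 0.50 ± 0.34 (SE) did not pass the test (limma adjusted p = 0.336). It was 0.81 without vehicle replicate 1 (adjusted p = 0.133) and 0.27 without GSK-J4 replicate 1 (adjusted p = 0.622). In the forebrain p75 is best known from basal forebrain cholinergic neurons. Their 5 detected markers summed to 189 to 229 with vehicle and 239 to 268 with GSK-J4, but they went in both directions. Isl1 was not detected on every array of either group, and Lhx8 was the 1 marker called (limma log2 fold change 0.62, adjusted p = 0.0416). Chat (0.45) and Gbx1 (0.07) were also above 0, and Slc18a3 (−0.15) and Slc5a7 (−0.29) were below it. Without vehicle replicate 1 Gbx1 was at 0.24, Slc18a3 at 0.26 and Slc5a7 at −0.65. Lhx8 was not past the threshold after GC correction (0.34, adjusted p = 0.172) or with scaling to the 75th percentile (0.49, adjusted p = 0.0614). The part of these markers in the Ngfr values was not tested.

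Sort1, which encodes sortilin, a Vps10p-domain receptor that carries BDNF into the regulated secretory pathway and binds precursors of neurotrophins together with p75, was the only member with separated groups, and its probes disagreed. Probe 1 (A_55_P2927762, chr3:108151563-108151622, plus strand), in sequence common to both variants, read 9.45, 9.34 and 9.44 with vehicle and 9.63, 9.80 and 9.85 with GSK-J4. All GSK-J4 arrays lay above all vehicle arrays. The signal rose by a log2 fold change of 0.35 ± 0.09 (SE; 1.27-fold; limma adjusted p = 0.0492, exact permutation p = 0.1).

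Probe 3 (A_55_P2503990, chr3:108164279-108164338), 12.7 kb farther downstream and also common to both variants, read 14.42, 14.52 and 14.57 with vehicle and 14.15, 14.26 and 14.25 with GSK-J4. All GSK-J4 arrays lay below all vehicle arrays. The log2 fold change was −0.29 ± 0.08 (SE; 1.22-fold lower; limma adjusted p = 0.0562, exact permutation p = 0.1), which did not pass the threshold. Probe 2 (A_55_P2076683, chr3:108158404-108158463), assigned to variant 1 only, read 6.73, 6.84 and 6.20 against 6.66, 6.48 and 6.97, with overlapping groups and a change of 0.11 ± 0.21 (SE; log2; limma adjusted p = 0.724; 0.19 without vehicle replicate 1).

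The 2 probes common to both Sort1 variants thus gave opposite directions, and the difference probe 1 minus probe 3 moved from −5.09 ± 0.11 to −4.46 ± 0.06 (SD, n = 3), a shift of 0.64 and the largest of the 10 pairs. No single direction for Sort1 follows: the mean of its 3 probes changed by 0.06 ± 0.09 (SE; limma adjusted p = 0.68). Probe 1 was not past the threshold after GC correction (0.29, adjusted p = 0.0796), by the methods' t-test (adjusted p = 0.129) or without any 1 of the arrays (0.30 to 0.41). Probe 3 passed it with array weights, with trended and robust eBayes and when probes had to be detected on all arrays (adjusted p = 0.0461, 0.0235 and 0.0472), and it reversed to 0.04 with scaling to the 75th percentile.

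**Figure D3:**
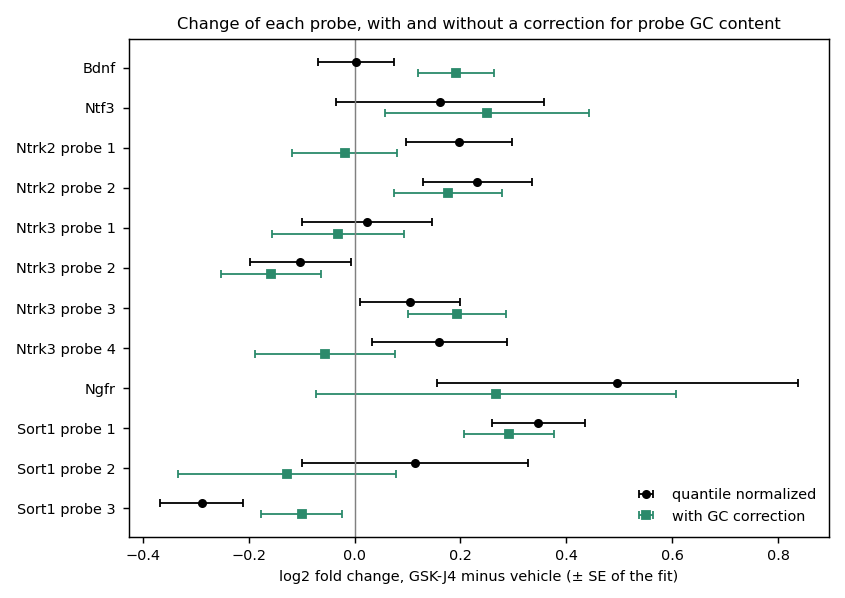
Log2 fold change (x axis, ± SE of the limma fit) of the 12 probes after quantile normalization (black circles) and after an added correction for probe GC content (green squares). Sort1 probe 1 stays near 0.3, Sort1 probe 3 moves from −0.29 to −0.10, Bdnf moves from 0.00 to 0.19 and Ntrk2 probe 1 from 0.20 to −0.02.

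The base composition of the probes moved with their fold changes over the whole array. The median log2 fold change of all kept probes was −0.12 at a GC content from 30% to 40%, 0.05 from 40% to 50% and 0.23 from 50% to 60%. Bdnf and Sort1 probe 3, at 35% GC, and Ntf3 and Ntrk3 probe 3, at 38.3%, are in the class with a negative median, whereas Ntrk2 probe 1 and Ntrk3 probe 4, at 50%, Ngfr, at 51.7%, and Sort1 probe 2, at 53.3%, are in the class with the most positive of these medians. After each array was corrected for GC content, 0 of the 12 probes were called by limma, beside 10.6% of all probes, 2 were past an unadjusted p of 0.05, beside 32.3% of all, and 4 had separated groups, beside 41.8% of all.

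Bdnf was among these 4. Its GC-corrected log2 signals were 10.54, 10.54 and 10.49 with vehicle and 10.64, 10.76 and 10.74 with GSK-J4. All GSK-J4 arrays were then above all vehicle arrays, by 0.19 on the log2 scale (limma adjusted p = 0.129), so the overlap of its groups depended on this correction and the missing call did not. Truncated Ntrk3, probe 3, rose likewise to 0.19 (adjusted p = 0.208) and shared Ntrk3 probe 2 fell to −0.16 (adjusted p = 0.297), neither past the threshold.

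**Figure D4:**
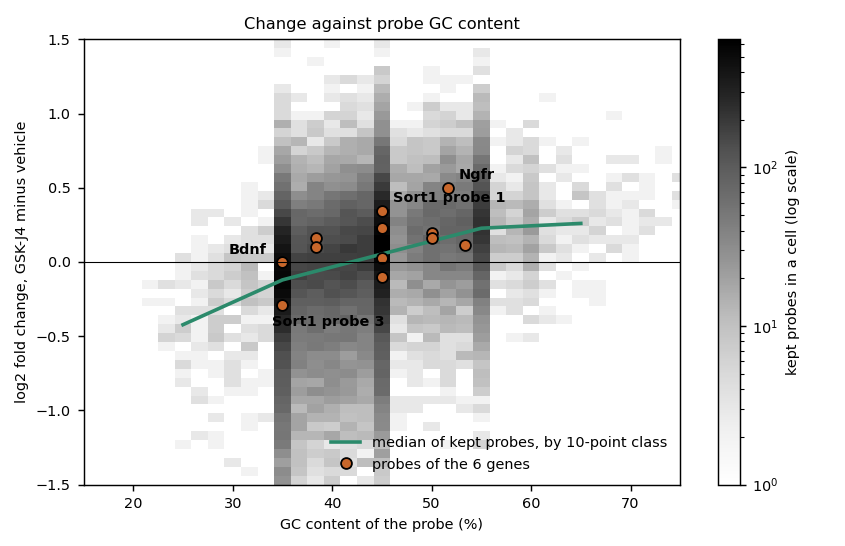
Log2 fold change of GSK-J4 against vehicle (y axis) against the GC content of the probe in percent (x axis) for all kept probes (grey, darker where more probes fall, log scale; probes beyond the y axis are not drawn), the median of each class of 10 percentage points (green line) and the 12 probes of the 6 genes (orange). The line climbs from −0.42 in the class from 20% to 30% to 0.26 in that from 60% to 70%, and the members lie on both sides of it.

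Among the GSK-J4 arrays the ligands and TrkC varied together. GSK-J4 replicate 1 was the lowest of the 3 for Bdnf, Ntf3 and all 4 Ntrk3 probes and the highest for Ngfr, and GSK-J4 replicate 2 was the highest for Bdnf, Ntf3 and 3 of the Ntrk3 probes. The 7 markers of cortex and hippocampus summed to 27463, 29476 and 28834 on GSK-J4 replicates 1, 2 and 3, in the order of Bdnf and Ntf3. On vehicle replicates 1, 2 and 3 they summed to 32128, 32149 and 30232, in the order of Bdnf but not of Ntf3. Every vehicle sum was above every GSK-J4 sum, while the log2 fold changes of Bdnf and Ntf3 were 0.00 and 0.16. The part of these markers was not tested. Over the 6 arrays, each of a different mouse, and with slide and treatment in common within a group, Pearson's r was 0.91 between Bdnf and Ntf3 and 0.80 between Bdnf and the brightest Ntrk3 probe, against 0.09 between Bdnf and the brightest Ntrk2 probe. Of 20202 other genes detected on every array, those most like Bdnf were Pla2g2f (r = 0.996), Igfbpl1 (r = 0.988) and Cidea (r = 0.985), and 16 genes had an r above 0.95. These are the highest of 20202 values, each over only 6 arrays. Whether they exceed what unrelated genes would give was not tested.

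The other genes of the pathway were taken as 6 lists with 146 genes, of which 137 had a kept probe. With 1 probe a gene, limma called 9 of the 137 higher and 8 lower, that is 6.57% and 5.84%, beside 8.59% and 7.56% of all genes kept. The median log2 fold change was 0.05 over the 137 (0.03 without vehicle replicate 1) and 0.04 over all genes, and the groups did not overlap for 61 of the 137 genes (44.5%), beside 45.5% of all. These shares were at or below those of the array. They depended on the scaling and on each array: scaling to the 75th percentile gave 30 higher and 4 lower, beside 17.5% and 8.49% of all genes, GC correction gave 5 higher and 4 lower, beside 5.13% and 4.96%, and without any 1 of the vehicle arrays limma called 0 of the 137, beside 5 to 13 probes on the whole array. Without GSK-J4 replicate 1, 2 or 3 limma called 2, 7 and 4 of the 137 higher, beside 979, 2074 and 1536 of 34443 probes. It called 1, 6 and 6 lower, beside 1428, 2078 and 2483 probes. The methods' t-test called 0 higher and 1 lower, Sos1, beside 34 and 25 of all probes. The medians of the 6 lists moved with the processing too: they ran from −0.13 to 0.17 as reported, from −0.07 to 0.07 after GC correction, and from 0.13 to 0.32 with scaling to the 75th percentile, where all 6 were above 0.

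Of the remaining neurotrophins and receptors and the enzymes that process them, 10 of 14 genes were kept, with a median of −0.05 (−0.08 without vehicle replicate 1). Limma called 0 higher and 1 lower, beside 8.59% and 7.56% of all genes. Plat, which encodes tissue plasminogen activator and so the protease that makes plasmin to cleave proBDNF, read 10.01, 10.18 and 10.18 with vehicle and 9.59, 9.74 and 9.54 with GSK-J4. The groups did not overlap, and Plat fell by 0.50 ± 0.09 on the log2 scale (SE, limma adjusted p = 0.0265), also after GC correction (−0.48, adjusted p = 0.0366). It did not pass the methods' t-test (adjusted p = 0.0868). Plat had 2 kept probes, and only the brighter is given. Ntf5, which encodes NT-4 and was looked at outside the rule for named genes, had no probe that cleared the background on every array of either group.

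Of the adaptors and kinases downstream of Trk receptors all 46 genes were kept, and the median was 0.07. Limma called 4 higher and 4 lower, beside 8.59% and 7.56% of all genes. The adaptor Shc3 (0.71, adjusted p = 0.0284), the kinase Mapk3, also known as Erk1 (0.39, adjusted p = 0.0243), the insulin receptor substrate Irs2 (0.29, adjusted p = 0.034) and Hras rose by limma. The Ras exchange factor Sos1 (−0.52, adjusted p = 0.0151), the small GTPase Rap1a (−0.45, adjusted p = 0.024), the kinase Map2k1 (−0.44, adjusted p = 0.0362) and Braf fell. Sos1 had 3 kept probes, and only the brightest is given. The probes of Shc3 and Mapk3 have a GC content of 55% and those of Sos1 and Rap1a of 35%. After GC correction 1 gene of the list, the adaptor Gab2, was called higher (0.40, named after its values were seen) and 2 lower, Sos1 and Map2k1, at −0.33 and −0.50. Of all genes 5.13% were then called higher and 4.96% lower. Shc3, Mapk3, Irs2 and Hras were then not past the threshold, at 0.46, 0.14, 0.05 and 0.07, nor were Rap1a and Braf, at −0.26 and −0.23. With scaling to the 75th percentile Map2k1 (−0.16) and Braf (−0.21) were not past it.

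Of the partners of p75 and the genes of its death signalling 21 of 22 were kept and limma called 0, with a median of 0.05 (0.03 without vehicle replicate 1). Of these 21, 3 were higher and 0 lower at an unadjusted p of at most 0.05, beside 20.1% and 15.5% of all genes, and 0 were called by the methods' t-test. Those with the smallest p were Traf4, an adaptor that binds p75 (0.49 ± 0.15 SE, limma adjusted p = 0.073), and Arhgdia, a dissociation inhibitor of small GTPases (0.19 ± 0.06 SE, adjusted p = 0.0927). Arhgdia was at −0.06 after GC correction and at 0.62 with scaling to the 75th percentile, where it passed (adjusted p = 0.0113).

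Of the transcripts that BDNF is known to induce, 27 of 28 were kept. Limma called 1 higher and 0 lower, beside 8.59% and 7.56% of all genes, and the median was −0.13. That median was −0.03 without vehicle replicate 1, 0.00 after GC correction and 0.13 with scaling to the 75th percentile. Of the immediate early genes, looked at outside the rule for named genes, Arc (−0.06), Egr1 (−0.28), Fos (−0.28) and Npas4 (0.20) did not pass the test, with limma adjusted p-values of 0.788, 0.285, 0.529 and 0.646. Without vehicle replicate 1 Arc was at 0.02 and Fos at −0.14. Npy, a neuropeptide gene, read 11.46, 11.56 and 11.55 with vehicle and 11.90, 11.89 and 12.04 with GSK-J4 without overlap, and rose by 0.42 ± 0.08 (SE; limma adjusted p = 0.0269; 0.21 with adjusted p = 0.131 after GC correction).

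Of the genes of the hypothalamic feeding circuits in which BDNF acts, 12 of 15 were kept. Limma called 2 higher and 0 lower, beside 8.59% and 7.56% of all genes. The median was 0.17, and it was 0.10 without vehicle replicate 1 and 0.04 after GC correction. Pomc, the precursor of melanocortins, read 7.79, 8.0 and 8.03 with vehicle and 8.74, 8.60 and 9.05 with GSK-J4, and Lepr, the leptin receptor, read 7.93, 8.10 and 8.08 against 8.70, 8.66 and 8.73. The groups did not overlap in either gene. Pomc and Lepr rose by 0.86 ± 0.14 and 0.66 ± 0.08 (SE, limma adjusted p = 0.0221 and 0.0146), also after GC correction (0.61 and 0.60, adjusted p = 0.0465 and 0.0223). Neither passed the methods' t-test (adjusted p = 0.108 and 0.0814). Outside the rule for named genes, Mc4r, the melanocortin receptor upstream of hypothalamic BDNF, read 8.42 and 8.67 on average and did not pass the test (0.25, limma adjusted p = 0.279; 0.10 without vehicle replicate 1), and Sim1 and Fezf1, which mark the paraventricular and ventromedial nuclei, and Trh were not detected on every array of either group. The undetected hypothalamic markers given above apply to these values. The summed signal of the 5 that were detected was 512 to 612 with vehicle and 658 to 817 with GSK-J4. That sum includes the rise of Pomc itself, the 1 marker of the 5 called by limma, so it says nothing apart from Pomc. The log2 fold changes of the others were 0.81 for Hcrt, 0.10 for Agrp, 0.09 for Oxt and −0.51 for Hdc. Without vehicle replicate 1 Agrp was at 0.03, Oxt at 0.40 and Hdc at −0.31.

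Of the regulators of Bdnf transcription and mRNA transport all 24 were kept, with a median of 0.03 (0.05 without vehicle replicate 1). Limma called 2 higher and 3 lower, beside 8.59% and 7.56% of all genes. Ezh2, the methyltransferase that writes the mark which Kdm6 enzymes erase, rose by 0.55 ± 0.10 and the transcription factor Usf1 by 0.45 ± 0.11 (SE; limma adjusted p = 0.0258 and 0.0455). Arnt2, the partner of Npas4 (−0.43, adjusted p = 0.0362), and Tsnax, which binds Bdnf mRNA together with translin (−0.28, adjusted p = 0.0454), fell. After GC correction Ezh2 (0.64) and Tsnax (−0.33) were past the threshold, while Usf1 and Arnt2 were not, at 0.39 and −0.38 (adjusted p = 0.069 and 0.0598). With scaling to the 75th percentile Arnt2 was at −0.35 (adjusted p = 0.0528) and Tsnax turned to 0.03. The targets of the inhibitor, Kdm6a and Kdm6b, also outside the rule, did not pass the test (0.05 and 0.25, limma adjusted p = 0.66 and 0.149; Kdm6a was at 0.01 without vehicle replicate 1). After GC correction they were at 0.24 and 0.04.

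**Figure D5:**
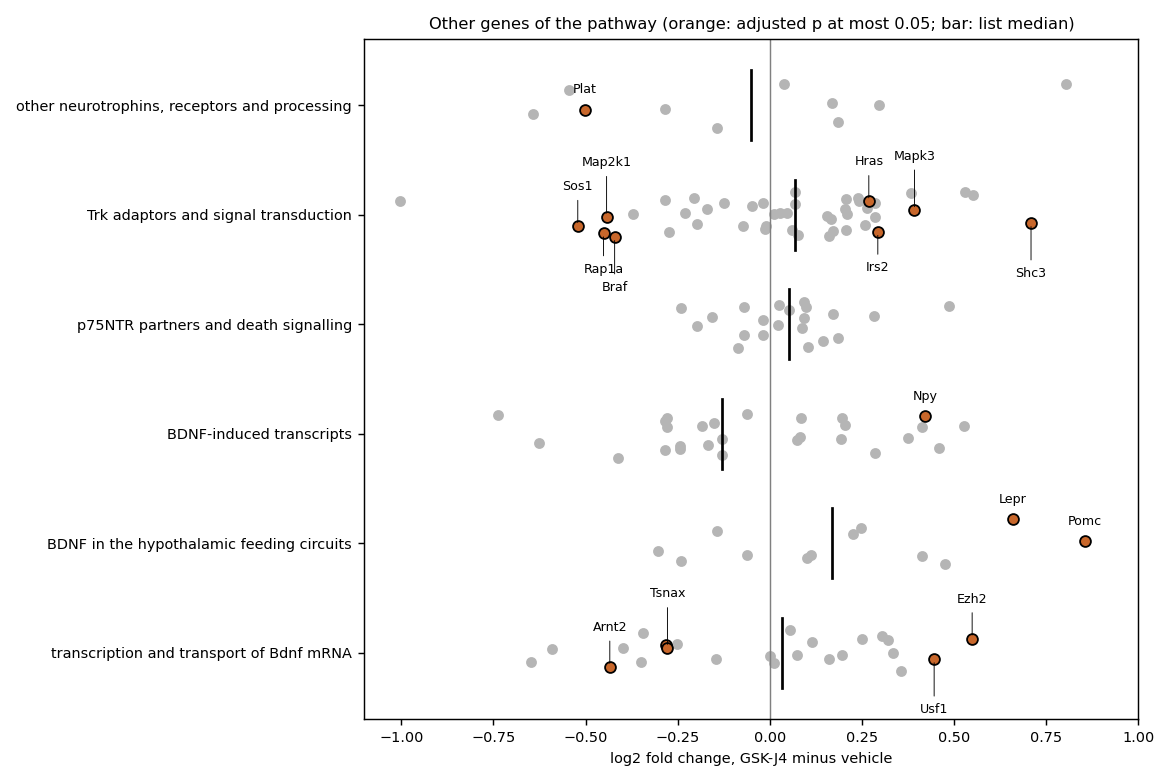
Log2 fold change of GSK-J4 against vehicle (x axis) for the kept genes of the 6 pathway lists, 1 probe a gene; orange points, most of them named, passed an adjusted p of 0.05 by limma, grey points did not, and the bar is the median of the list. The called genes lie on both sides of 0 among the Trk adaptors (4 and 4) and the Bdnf regulators (2 and 3), and no partner of p75 was called.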

How the data were processed

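The authors scanned 6 one-colour Agilent arrays and deposited the background-corrected intensity of each spot with its flags (Feature Extraction 10.7.1.1, per the submitters' processing notes), together with a table of log2 values that their methods describe as quantile normalized. The sorted columns of the deposited values differ by at most 0.00424, each column correlates with its own array at 0.999 or above, and 0 columns were left unassigned. The intensities were analysed with R 4.3.3, version 1.17.8 of data.table and limma 3.58.1. Control spots and spots with outlier flags were left out, replicate spots were averaged per probe on the log2 scale, and the 6 arrays were quantile normalized. A probe was kept if Feature Extraction marked it as well above background on the 3 arrays of either group, which left 34443 probes with 22117 gene names and is what detected means in the text. The rule for the genes asked for the deposited log2 table; the spot intensities were used in its place because they keep the flags, and the deposited values are an alternative.

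Groups were compared by lmFit and eBayes of limma, two-sided, without covariates, with Benjamini-Hochberg adjustment over all probes kept. Single probes and pairs of probes were also compared by an exact permutation test over the 20 orders of 3 arrays against 3, whose smallest p is 0.1. Pathway genes are represented by the kept probe with the highest mean, and other kept probes of these genes are not described. Named pathway genes are, for each list, at most 3 higher and 3 lower genes with the largest fold among those called, or else those with the smallest p, and all others named are given with counts or as outside this rule. The results of some single genes are not reported here. The members and lists were chosen with earlier results of these data known, so no list is independent evidence. Nothing but the design text says that arrays come from separate mice, and p-values measure only the spread between these arrays. Their number limits the precision. The fit was tested on simulated data with known changes. Gene names alone were taken from the reference table (GRCm38.p6), in which 24787 of 37074 were found. Alternatives were the deposited table, scaling by the 75th percentile, background correction by normexp (offset 50), other filters and variance models, array weights, a lowess correction for GC content (span 30%), the replicate number as a block, the methods' t-test and thresholds, the mean of all probes of a gene, and leaving out each array.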

Additional observations from a re-analysis of the deposited data

How the results depend on the processing

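The count of the 12 member probes called higher was 1 as reported, beside 2888 of 34443 probes. It was 3 with scaling to the 75th percentile, beside 5036, and 0 with GC correction, beside 1684. It was also 0 without a filter on dim probes, beside 1805 of 56605, and by the methods' t-test, beside 34. The methods' thresholds gave 0, and so did leaving out any 1 array, beside 1 to 2074 of 34443. The count called lower was 0 as reported, beside 2893. It was 1 with array weights, beside 3293, and with trended and robust eBayes, beside 3311. With probes well above background on all arrays it was 1, beside 2793 of 30940. Of the pathway genes, 9 higher and 8 lower became 30 and 4 with scaling to the 75th percentile and 5 and 4 with GC correction. They became 0 and 1 by the methods' t-test, and 4 and 4 at the methods' thresholds, beside 12.7% of all probes in either direction. When 1 array was left out they were 0 to 7 and 0 to 6. Normexp gave 15 higher, beside 3101 of 34443 probes, and trended and robust eBayes 15 lower, beside 3311. No filter gave 4 lower, beside 1976 of 56605 probes. Pairs of probes with separated groups, 4 as reported, were 2 with GC correction and 4 to 5 without 1 array. With the replicate number as a block, 0 member probes and 0 pathway genes were called, with or without GC correction, as was 0 of all probes. The smallest adjusted p of limma without GC correction was 0.0798, with 11079 probes at an unadjusted p of at most 0.05. Deviations of same-numbered arrays from their group means correlated at 0.00741 to 0.0817. Whether these arrays share more than a number was not tested. Of the calls over all probes 2888 of 5781 were higher, against 5036 of 8671 (58.1%) with scaling to the 75th percentile. Directions that turned were all of uncalled probes: to −0.11 for Ntrk3 probe 1, 0.018 for Ntrk3 probe 2, −0.019 for Sort1 probe 2 and 0.042 for Sort1 probe 3 with scaling to the 75th percentile, to −0.055 for Bdnf with normexp, and to −0.019 for Ntrk2 probe 1, −0.031 for Ntrk3 probe 1, −0.056 for Ntrk3 probe 4 and −0.13 for Sort1 probe 2 with GC correction, with the block or without it; leaving out 1 array gave −0.030 to 0.041 for Bdnf, −0.068 to 0.11 for Ntrk3 probe 1 and −0.082 to 0.24 for Sort1 probe 2. Leaving out an array also leaves fewer samples, and for the other alternatives the cause was not tested.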
